A study of Mus musculus with 6 samples.

Results

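The mitochondrial ribosomal protein genes were taken as the genes of the mRNA table whose symbol begins with Mrpl or Mrps and a number, 1 row per gene identifier. The rule gave 78 genes of 21954, of which 49 carried a large-subunit name (Mrpl) and 29 a small-subunit name (Mrps). The study exposed 3 C57BL mice aged 5 weeks to 6 Gy of X-rays and took the thymus after 24 h, beside 3 unexposed control mice of the same strain and age. Polyadenylated RNA of thymus tissue was sequenced in 3 libraries a group, and abundance was deposited as FPKM, which corrects fragment numbers for transcript length and library depth. All the mice were wild type, and no allele or agent besides the X-rays separated the groups. The libraries are called irradiated 1 to 3 and control 1 to 3 by the numbers of their labels.

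Mitochondria keep a ribosome of their own, which descends from a bacterial one. It translates only the few mRNAs of the mitochondrial genome, all of which encode core subunits of the respiratory chain and of ATP synthase. Its RNAs come from mitochondrial DNA, while every protein of both subunits is encoded in the nucleus, made in the cytosol and imported, so that the nuclear and mitochondrial products must meet in assembly. Roughly speaking, the large subunit forms peptide bonds and holds the exit tunnel, and the small subunit reads the codon. In mammals some of the proteins have bacterial homologues and others are found in mitochondria only.

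On the deposited FPKM the mitoribosomal genes spread around their control level after irradiation, some higher and some lower, and large changes were rarer than among all tested genes. Their log2 fold changes (irradiated minus control) ran from -1.07 to 1.55 with a median of 0.01, which became -0.36 with quantile-normalized values and -0.37 with median-ratio scaling. In size, 3 of 78 differed by 1 or more, or 3.85%, against 46.5% of all 14001 tested genes. A low share was not particular to the members. It was 0% of 24 mitoribosome assembly factors, 6.25% of 16 mitochondrial translation factors and 13.9% of 79 cytosolic ribosomal protein genes. Among 82 oxidative phosphorylation genes it was 15.9%, and among 10 regulators of mitochondrial genes 40%. The SD of the log2 fold changes was 0.550 over the members and 1.55 over all tested genes. In limma with Benjamini-Hochberg adjustment over all tested genes, 12 members rose and 19 fell at adjusted p under 0.05, and 47 did not pass. Among all tested genes 63.2% passed (42.4% higher and 20.9% lower), against 39.7% of the members (15.4% higher and 24.4% lower). The irradiated and control libraries did not overlap in 39 of the 78 members, 16 with all irradiated libraries above and 23 with all below, while the groups did not overlap in 70.8% of all tested genes. All 78 members passed the filter of a mean of 0.5 FPKM, and none was below 1 FPKM in any library. In whole tissue, fewer cells of a type and less RNA per cell cannot be told apart.

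**Figure D1:**
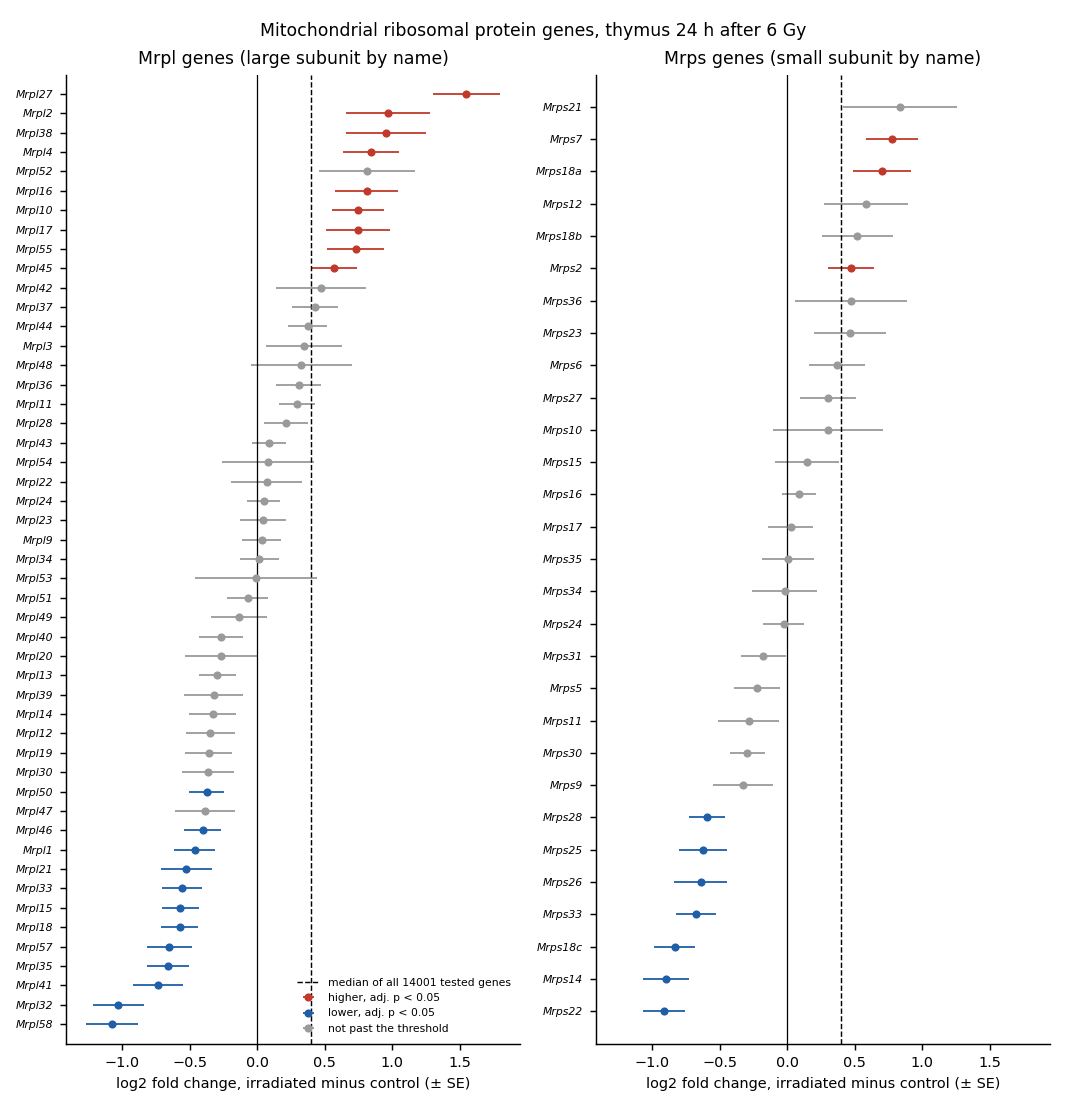
Log2 fold change (irradiated minus control, horizontal axis, with its SE) of each Mrpl gene on the left and each Mrps gene on the right, 3 libraries per group. The dashed line is the median of all tested genes, 0.40, and 58 of the 78 members lie below it.

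Markers of several cell types differed between the groups. The summed level of 12 markers of double-positive thymocytes, the main cell of the thymic cortex, was 141, 86.1 and 103 FPKM in the irradiated libraries, against 2176, 2353 and 2497 FPKM in the control libraries, and 11 of the 12 fell. All 10 markers of dividing cells fell, while 10 of 10 macrophage, 8 of 8 fibroblast, 7 of 8 endothelial and 6 of 8 thymic epithelial markers rose. Markers of fat, skeletal muscle and airway differed among the irradiated mice, and which cells or tissue these transcripts came from was not tested. Summed over 8 genes each, fat markers came to 94.2, 1857 and 751 FPKM after irradiation, against 57.6, 24.9 and 24.2 FPKM in controls, with Ucp1 and Cidea listed at 0 in control 3. Skeletal muscle markers came to 8.52, 144 and 36.2 FPKM in irradiated 1, 2 and 3, against 7.98, 8.26 and 9.76 FPKM in the controls, with Tnnc2 listed at 0 in irradiated 1 and control 2 and Acta1 in control 1. The 6 airway markers came to 45.9, 3335 and 46.0 FPKM after irradiation, against 4.42, 4.04 and 3.20 FPKM in controls, with Scgb3a2 listed at 0 in control 1 and 3 and Scgb1a1 in control 3. Their part in the results on mitoribosomal genes was not tested.

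Levels of the members lay close together. The mean over the 6 libraries had a median of 11.7 FPKM, and the most abundant gene stood 16.5 times above the least abundant one. The 4 most abundant were Mrpl30, Mrpl24, Mrpl33 and Mrps21, with means of 47.4, 42.6, 39.9 and 30.9 FPKM. At the other end were Mrpl53, Mrpl47, Mrpl19 and Mrps10, with 2.87, 3.28, 4.17 and 4.35 FPKM. Mrpl24, a protein at the tunnel exit of the large subunit, was among the steadiest, at 46.1, 42.5 and 41.3 FPKM in the irradiated thymuses, against 40.5, 41.6 and 43.5 FPKM in the control thymuses. Mrpl30 had 43.2, 38.7 and 41.1 FPKM after irradiation, against 40.5, 64.8 and 56.1 FPKM in controls, and its groups overlapped. Of these 8 genes, Mrpl33 alone passed the test, with 32.5, 27.9 and 36.6 FPKM after irradiation, against 48.6, 44.3 and 49.2 FPKM in controls (log2 fold change -0.56 ± 0.15 (SE), adjusted p = 0.0131). The summed level of all 78 members was 1101 ± 132 FPKM in irradiated and 1086 ± 14.9 FPKM in control thymuses (SD, n = 3 each). As a share of all FPKM in the table the members held 0.381, 0.371 and 0.386% after irradiation, against 0.406, 0.402 and 0.400% in controls, so every irradiated library was below every control library on that scale.

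How the libraries are scaled against each other decided the direction of many members. Over all tested genes the log2 fold change had a median of 0.40 on the deposited FPKM, -0.07 after quantile normalization, 0.02 after median-ratio scaling and 0.31 with equal summed FPKM. Relative to that median the members lay at -0.39 to -0.30 under these 4 scalings. After quantile normalization 4 members were higher and 27 lower, beside 25.0% and 31.4% of all tested genes. After median-ratio scaling 1 was higher and 36 lower, beside 33.2% and 32.6%. Over the 4 scalings 20 members changed sign, none of which had passed on the deposited FPKM, and 0 passed in opposite directions. Mrpl27 was the single member that passed as higher under all 4 scalings, and 18 members passed as lower under all 4. Shares of all tested genes that changed sign or passed under all 4 are not given here. These counts therefore cannot be read as particular to the members. In the authors' deposited table of DESeq2 results, 2 members were higher (Mrpl27 and Mrpl38) and 13 lower at adjusted p under 0.05, all 13 among the 19 that fell here, beside 35.0% higher and 18.5% lower of the tested genes.

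**Figure D2:**
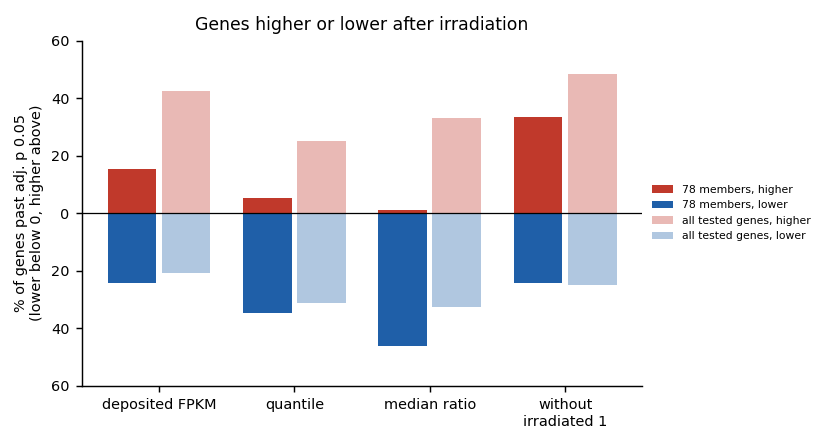
Percentage of genes past adjusted p 0.05, higher above the zero line and lower below it, for the 78 members (full colour, left bar) and all tested genes (pale, right bar), on the deposited FPKM, with quantile and median-ratio scaling, and without irradiated 1. The share of members that were higher is below the share of all genes in each of the 4 pairs of bars, at 15.4% against 42.4% on the deposited FPKM.

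Irradiated 1 stood apart from the other irradiated mice. The median deviation of the members from their control mean was -0.25, 0.11 and 0.03 on the log2 scale in irradiated 1, 2 and 3. Irradiated 1 was the lowest of the 3 in 47 of 78 members, and no such count over all tested genes is given here. All tested genes were lowest in irradiated 1 too, with median deviations of 0.26, 0.45 and 0.45. Over the irradiated libraries the SD of the members' median was 0.19, and 0.083 when taken relative to the median of all tested genes. In 10 members (Mrpl22, Mrpl23, Mrpl28, Mrpl42, Mrpl54, Mrps12, Mrps15, Mrps18b, Mrps21 and Mrps36) irradiated 1 lay below every control library while irradiated 2 and 3 lay above every one. The share of all tested genes with that pattern is not given here, so it cannot be read as particular to the members. Without irradiated 1 the test called 26 members higher and 19 lower, beside 48.3% and 24.9% of the genes tested then. Without irradiated 2 it called 6 higher and 16 lower, and without irradiated 3 it called 6 higher and 15 lower. Without control 1, 2 or 3 it called 5, 4 or 4 members higher and 13, 12 or 12 lower. Shares over all tested genes are given here only for the fit without irradiated 1. The lower counts in the other fits therefore cannot be read as particular to the members. Fat, muscle and mitochondrially encoded transcripts were also lowest in irradiated 1 among the irradiated libraries, and their part in these counts was not tested.

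Mrpl27 led the members that rose. This gene, whose bacterial homologue reaches the peptidyl transferase centre, lies at chr11:94653767-94660089 on the plus strand (build GRCm38, as are all positions here). It had 14.8, 16.9 and 14.4 FPKM in the irradiated thymuses, against 3.90, 7.52 and 4.70 FPKM in the control thymuses. The lowest irradiated library was above the highest control library (log2 fold change 1.55 ± 0.25 (SE), adjusted p = 0.00155), and the gene passed in all 6 fits that left out 1 library, with adjusted p from 0.00143 to 0.00958. Mrpl2, at chr17:46646229-46650139 and a protein of the ribosomal core, had 9.64, 22.5 and 20.0 FPKM in the irradiated thymuses, against 7.68, 8.51 and 8.67 FPKM in the control thymuses. Irradiated 1 was just above the controls and the other two were more than 10 FPKM higher (log2 fold change 0.97 ± 0.31 (SE), adjusted p = 0.0286). Mrpl4, whose bacterial homologue lines the exit tunnel, had 13.0, 22.7 and 18.1 FPKM in the irradiated thymuses, against 9.27, 10.0 and 9.84 FPKM in the control thymuses (log2 fold change 0.84 ± 0.21 (SE), adjusted p = 0.0105). No irradiated library was as low as any control. The mitochondria-specific protein Mrpl38 of the central protuberance had 8.90, 20.9 and 16.3 FPKM in the irradiated thymuses, against 7.72, 7.10 and 7.43 FPKM in the control thymuses (log2 fold change 0.95 ± 0.30 (SE), adjusted p = 0.0262). Irradiated 1 exceeded the highest control by little over 1 FPKM.

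The other rises were smaller. Mrpl16 averaged 9.25 ± 2.38 FPKM after irradiation and 5.15 ± 0.738 FPKM in controls (adjusted p = 0.0205 in limma; SD, n = 3 each, here and below). Mrpl10, which carries the stalk that recruits translation factors, averaged 21.3 ± 4.76 FPKM after irradiation and 12.4 ± 0.877 FPKM in controls (adjusted p = 0.0124 in limma). Mrpl17 and Mrpl45, both at the tunnel exit, averaged 7.06 ± 2.26 and 9.86 ± 1.56 FPKM after irradiation, against 4.04 ± 0.0432 and 6.57 ± 0.505 FPKM in controls, with log2 fold changes of 0.74 and 0.57. Mrpl55 had a log2 fold change of 0.73 (adjusted p = 0.0192 in limma). In the small subunit Mrps7, a protein of the head next to the exit site for tRNA, had 15.2, 20.6 and 23.0 FPKM after irradiation, against 12.9, 10.7 and 10.2 FPKM in controls (log2 fold change 0.78 ± 0.19 (SE), adjusted p = 0.0102). Mrps2 rose least, by a log2 fold change of 0.47 (adjusted p = 0.0457 in limma). Of the 12 genes, Mrpl27, Mrpl4 and Mrps7 passed in every fit that left out 1 library and Mrpl10 in 5 of 6. The other 8 passed in 1 to 3 of the 6 fits and lost the call in the rest.

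The falls were led by an enzyme of the large subunit. Mrpl58, a peptidyl-tRNA hydrolase also known as ICT1 that can free stalled mitoribosomes and is built into the large subunit, lies at chr11:115403752-115412674 on the plus strand. It had 12.3, 10.2 and 8.40 FPKM in the irradiated thymuses, against 19.4, 26.0 and 19.7 FPKM in the control thymuses. Every irradiated library was below every control library (log2 fold change -1.07 ± 0.19 (SE), adjusted p = 0.00260). Mrpl32, which a protease of the inner membrane must trim before the ribosome can be assembled, lies at chr13:14608184-14613165 and had 4.36, 4.76 and 3.24 FPKM in the irradiated thymuses, against 8.49, 8.87 and 7.88 FPKM in the control thymuses (log2 fold change -1.03 ± 0.19 (SE), adjusted p = 0.00278). No irradiated library of Mrpl32 reached 5 FPKM, and no control library was below 7 FPKM. Mrps22, a mitochondria-specific protein of the small subunit, had 6.12, 7.52 and 8.41 FPKM in the irradiated thymuses, against 14.3, 13.6 and 13.4 FPKM in the control thymuses (log2 fold change -0.91 ± 0.16 (SE), adjusted p = 0.00220). Mrps14, which has a bacterial homologue in the head of the small subunit, had 7.45, 5.86 and 8.11 FPKM in the irradiated thymuses, against 13.0, 14.6 and 12.3 FPKM in the control thymuses (log2 fold change -0.90 ± 0.17 (SE), adjusted p = 0.00313). In both genes no irradiated library reached the lowest control.

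Mrpl41, for which binding to the survival protein BCL2 has been described, averaged 15.8 ± 3.38 FPKM after irradiation and 26.0 ± 2.41 FPKM in controls (log2 fold change -0.73, adjusted p = 0.0118 in limma). Mrps33 averaged 12.9 ± 1.36 FPKM after irradiation and 20.7 ± 2.14 FPKM in controls. Mrpl35 averaged 3.76 ± 0.135 FPKM in irradiated and 6.01 ± 0.522 FPKM in control thymuses. Mrpl57, a mitochondria-specific protein, averaged 8.48 ± 1.46 FPKM in irradiated and 13.3 ± 0.754 FPKM in control thymuses. Their log2 fold changes were -0.67, -0.66 and -0.65. Mrps26 had 9.44, 7.76 and 6.89 FPKM after irradiation, against 14.1, 9.92 and 13.8 FPKM in controls (log2 fold change -0.64, adjusted p = 0.0252 in limma), with control 2 nearest to the irradiated libraries. Besides Mrpl33, given above, and Mrps18c, the other 8 that fell were Mrps25, Mrps28, Mrpl18, Mrpl15, Mrpl21, Mrpl1, Mrpl46 and Mrpl50, with log2 fold changes from -0.62 to -0.38. Mrpl58, Mrpl32, Mrps22, Mrps14, Mrps18c, Mrps33, Mrpl35, Mrpl57, Mrps28 and Mrpl18 passed as lower under all 4 scalings and in all 6 fits that left out 1 library. The share of all tested genes that did so is not given here.

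**Figure D3:**
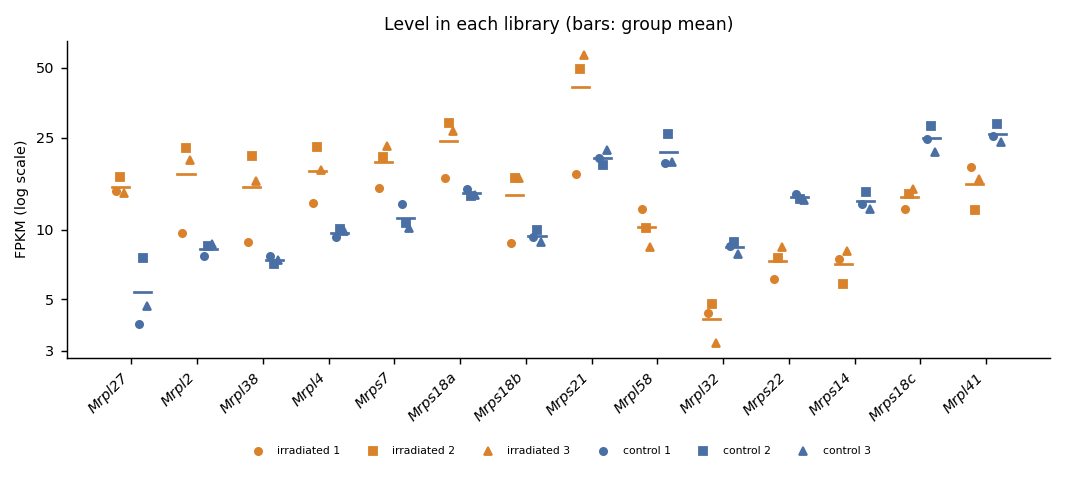
FPKM in each library (log axis) of 14 members, with irradiated libraries in orange left of control libraries in blue, the marker giving the replicate number and the bar the group mean. Irradiated 1 lies near the controls in Mrpl2, Mrpl38, Mrps18a, Mrps18b and Mrps21, while all irradiated points of Mrpl58, Mrpl32, Mrps22, Mrps14, Mrps18c and Mrpl41 lie below all control points.

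The 3 genes named after the bacterial protein S18 went different ways. Mammals have 3 such proteins, and by structure Mrps18c and Mrps18b sit in the small subunit while Mrps18a sits in the large one. Mrps18c fell, with 12.3, 14.3 and 15.0 FPKM in the irradiated thymuses, against 24.6, 28.2 and 21.6 FPKM in the control thymuses (log2 fold change -0.83 ± 0.15 (SE), adjusted p = 0.00280). Mrps18a rose, with 16.7, 28.9 and 26.7 FPKM in the irradiated thymuses, against 15.0, 14.0 and 14.1 FPKM in the control thymuses (log2 fold change 0.70 ± 0.22 (SE), adjusted p = 0.0253), a call that was lost under 2 of the 4 scalings and in 5 of 6 fits without 1 library, where adjusted p reached 0.0791. Mrps18b had 8.75, 16.8 and 16.7 FPKM in the irradiated thymuses, against 9.30, 10.0 and 8.85 FPKM in the control thymuses and did not pass (log2 fold change 0.52 ± 0.26 (SE), adjusted p = 0.121). Irradiated 1 was below all controls in Mrps18b and the other two were well above them, and without irradiated 1 the gene passed as higher at adjusted p = 0.000705 in limma.

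Large spreads among the irradiated mice left some sizeable differences without a call. Mrps21, a small protein of the small-subunit platform, had 17.4, 49.5 and 56.8 FPKM in the irradiated thymuses, against 20.4, 19.0 and 22.1 FPKM in the control thymuses (log2 fold change 0.84 ± 0.42 (SE), adjusted p = 0.119). Mrpl52 had 15.8, 27.7 and 46.5 FPKM in the irradiated thymuses, against 15.7, 15.7 and 15.2 FPKM in the control thymuses (log2 fold change 0.81 ± 0.35 (SE), adjusted p = 0.0812). In Mrps21 irradiated 1 was below the controls, and in Mrpl52 it was level with them. Mrps36, which despite its name is a component of the oxoglutarate dehydrogenase complex and not of the ribosome, had 6.26, 21.6 and 15.5 FPKM after irradiation, against 8.37, 9.49 and 9.80 FPKM in controls (log2 fold change 0.47, adjusted p = 0.348 in limma). Mrps30, which by structure belongs to the large subunit, had neither a large spread nor a sizeable difference. It had 8.29, 8.35 and 7.43 FPKM after irradiation, against 9.70, 10.0 and 9.83 FPKM in controls (log2 fold change -0.29, adjusted p = 0.0829 in limma). Every irradiated library of Mrps30 was below every control library. Mrpl12, a stalk protein that has been reported to bind the mitochondrial RNA polymerase, averaged 25.1 ± 5.01 FPKM after irradiation and 31.6 ± 3.55 FPKM in controls (adjusted p = 0.132 in limma).

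The large and the small subunit had medians close to each other. By name, 9 Mrpl genes rose and 12 of 49 fell, with a median log2 fold change of 0.02, and 3 Mrps genes rose and 7 of 29 fell, with a median of 0.01. The mean log2 level of the large subunit minus that of the small one was 0.20, 0.15 and 0.20 in irradiated 1, 2 and 3, against 0.20, 0.19 and 0.04 in control 1, 2 and 3, so that the groups overlapped. With Mrps18a and Mrps30 counted as large and Mrps36 left out, 10 of 51 rose and 12 fell in the large subunit (median 0.02), and 2 of 26 rose and 7 fell in the small one (median -0.01). On that assignment the difference in mean log2 level was 0.21, 0.22 and 0.24 in irradiated 1, 2 and 3, against 0.20, 0.19 and 0.04 in control 1, 2 and 3, so that the groups did not overlap, with irradiated 1 close to control 1 and 2. Members with a bacterial homologue had medians of 0.02 in the large and 0.06 in the small subunit, and mitochondria-specific members of -0.01 and -0.10. Within the central protuberance Mrpl27, Mrpl38 and Mrpl55 rose, Mrpl18, Mrpl46 and Mrpl58 fell, and Mrpl40 and Mrpl48 did not pass. On the deposited FPKM Mrpl17 and Mrpl45 rose among 6 proteins around the tunnel exit and Mrpl10 among 4 stalk proteins, and the others of these groups did not pass. After median-ratio scaling none of these 3 passed, and 1 protein of each group was lower.

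A set of 5 mitoribosomal proteins that carry other names was also measured. The median of Ptcd3, Chchd1, Dap3, Aurkaip1 and Gadd45gip1 was -0.90, and 3 of the 5 fell while the other two did not pass. Chchd1, a small-subunit protein, had 28.6, 19.4 and 26.3 FPKM in the irradiated thymuses, against 56.8, 68.2 and 55.5 FPKM in the control thymuses (log2 fold change -1.29 ± 0.18 (SE), adjusted p = 0.000969). Ptcd3, an RNA-binding protein of the small subunit, had 20.3, 17.9 and 19.4 FPKM in the irradiated thymuses, against 39.7, 38.3 and 37.0 FPKM in the control thymuses (log2 fold change -0.99 ± 0.12 (SE), adjusted p = 0.000488). Dap3, a GTP-binding protein of the small subunit first described as death-associated protein 3, had 16.7, 15.2 and 14.5 FPKM after irradiation, against 40.2, 22.9 and 26.4 FPKM in controls (log2 fold change -0.90 ± 0.22 (SE), adjusted p = 0.00918). Each of these 3 genes had all irradiated libraries below all controls and passed in all 6 fits without 1 library. Aurkaip1 had a log2 fold change of -0.60 with adjusted p = 0.0696 in limma.

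Genes that serve mitochondrial translation had medians near that of the members on the deposited FPKM. Of 24 mitoribosome assembly factors 1 rose and 2 fell (median -0.06), of 16 translation factors 2 rose and 2 fell (median 0.15), and of 20 mitochondrial tRNA synthetases and related enzymes 2 rose and 4 fell (median -0.04). After median-ratio scaling 9 of the 24, 7 of the 16 and 9 of the 20 were lower, and 1 of all these genes, the synthetase-list member Gatb, was higher, beside 32.6% lower and 33.2% higher of all tested genes. Their rising members did not all keep that sign: Mpv17l2, an assembly factor, had a log2 fold change of 0.66 (adjusted p = 0.0284 in limma) on the deposited FPKM and -0.07 after quantile normalization. The assembly factors Mterf3 and Gtpbp6 fell, by log2 fold changes of -0.76 and -0.56, and Rbfa, at 0.43, did not pass (adjusted p = 0.0750 in limma). Among translation factors the release factor Mtrf1l had 6.48, 3.57 and 4.07 FPKM after irradiation, against 10.3, 9.85 and 9.96 FPKM in controls (log2 fold change -1.12 ± 0.23 (SE), adjusted p = 0.00486). Guf1 fell by 0.57 on the log2 scale, while the recycling factor Mrrf and the elongation factor Gfm1 rose, with log2 fold changes of 0.58 and 0.60 on the deposited FPKM, and neither passed after quantile or median-ratio scaling. The synthetases Vars2, Aars2 and Mars2 fell, with log2 fold changes of -1.26, -1.03 and -1.74, and Gatb, a subunit of the enzyme that makes glutaminyl-tRNA, rose by 0.88, a call that was lost after quantile normalization.

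Among 13 genes for transcription, replication and RNA processing in mitochondria, 1 rose and 5 fell (median -0.38). The nuclear-encoded enzyme that cuts tRNAs out of mitochondrial transcripts has protein subunits that went opposite ways. Trmt10c had 5.36, 3.47 and 3.42 FPKM in the irradiated thymuses, against 12.6, 13.4 and 11.6 FPKM in the control thymuses (log2 fold change -1.63 ± 0.21 (SE), adjusted p = 0.000615). Hsd17b10 had 29.5, 52.9 and 43.0 FPKM in the irradiated thymuses, against 15.0, 16.6 and 17.8 FPKM in the control thymuses (log2 fold change 1.30 ± 0.22 (SE), adjusted p = 0.00207). In both genes the groups were apart and the call held in all 6 fits without 1 library. Polg, the catalytic subunit of the mitochondrial DNA polymerase, and Tfam, which packs mitochondrial DNA and starts its transcription, fell with log2 fold changes of -0.93 and -0.83.

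Of 10 regulators of nuclear genes for mitochondrial proteins 6 fell and 2 rose on the deposited FPKM, and 6 were lower under each of the other 3 scalings too. NRF1, the GABP complex and YY1 are transcription factors known to act at promoters of many such genes. Nrf1 had 13.0, 8.09 and 10.9 FPKM in the irradiated thymuses, against 33.8, 33.4 and 28.4 FPKM in the control thymuses (log2 fold change -1.60 ± 0.19 (SE), adjusted p = 0.000513). Gabpb2 had 20.8, 15.4 and 16.6 FPKM in the irradiated thymuses, against 38.7, 40.3 and 39.6 FPKM in the control thymuses (log2 fold change -1.18 ± 0.15 (SE), adjusted p = 0.000590). Gabpa, the DNA-binding subunit of the same complex, had 13.7, 10.6 and 11.4 FPKM after irradiation, against 20.9, 19.2 and 18.3 FPKM in controls (log2 fold change -0.71 ± 0.15 (SE), adjusted p = 0.00457). All 3 were lower in each irradiated library than in any control. Yy1 and Gabpb1 fell as well, with log2 fold changes of -0.86 and -1.17, and so did Myc, at -0.52, though Myc passed in 2 of the 6 fits without 1 library. The coactivator Ppargc1a, which is abundant in brown fat and muscle, had 0.468, 2.12 and 0.958 FPKM after irradiation, against 0.150, 0.128 and 0.0200 FPKM in controls (log2 fold change 2.54 ± 0.63 (SE), adjusted p = 0.0105), and it was highest in irradiated 2, where the fat and muscle markers were highest too. Its control levels lay near the added 0.1 FPKM, and it met the filter of a mean of 0.5 FPKM only through the irradiated libraries. Its call as 1 of the 2 that rose therefore depends on that filter and is no support for a rise. After quantile normalization Ppargc1a did not pass, with a log2 fold change of 0.96 and adjusted p = 0.193 in limma. Esrra rose by 0.46 on the deposited FPKM and passed under none of the other 3 scalings.

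Promoters of the members were read from RefSeq (build GRCm38.p6) as 300 bases, 250 before the annotated start and 50 from it on, and 69 of the 78 members matched a window by symbol, chromosome and strand. The RefSeq start lay within 50 bases of the start in the deposited table for 51 of the 69 and farther away for 18, at most 2496 bases for Mrpl36. Where a gene had several windows, the one nearest its start in the deposited table was used for members. For other genes the first listed window was used, so the choice differed between members and the genes set beside them. Letters of binding motifs were searched on both strands. The ETS core that GABP recognises was written CCGGAAG, the NRF1 motif GCGCANGCG and the YY1 motif AAGATGGC, each counted on its own, also where matches overlap. The ETS letters were in 24 of 69 member promoters (34.8%), in 17.1% of promoters of the other tested genes and in 9.11% of all 26993 promoters. For NRF1 the shares were 23.2%, 13.0% and 6.46%, and for YY1 17.4%, 4.26% and 2.87%. At least 1 of the 3 was in 60.9% of member promoters, 30.1% of promoters of the other tested genes and 16.5% of all promoters. In the 51 members whose starts lay within 50 bases of each other the shares were 35.3% for ETS, 25.5% for NRF1, 17.6% for YY1 and 62.7% for any of them. Of the members that rose and those that fell, any of these letters were in 6 of 10 and 11 of 17 promoters. The ETS letters were in 3 of 10 that rose, 9 of 17 that fell and 12 of 42 that did not pass. Of other common promoter letters, GGGCGG was in 49.3% of member promoters and 62.2% of those of the other tested genes (35.9% of all), CCAAT in 39.1% and 38.6% (37.9% of all), and TATAAA in 5.80% and 7.83% (14.2% of all).

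The following sequences show that the same letters stand before genes that moved in opposite directions. They end at or before both annotated starts, run 5′ to 3′ on the strand of the gene, and capitals mark the matched motif. Mrpl27, Mrps18a and Mrpl45 rose, and Mrpl58 and Mrps22 fell. Mrpl27 is shown with fewer bases because an exon of its neighbour lies in the window.
Mrpl27, chr11:94653724-94653753, plus strand: tgtccgcaagacCCGGAAGtagatctatcc
Mrps18a, chr17:46110836-46110985, plus strand: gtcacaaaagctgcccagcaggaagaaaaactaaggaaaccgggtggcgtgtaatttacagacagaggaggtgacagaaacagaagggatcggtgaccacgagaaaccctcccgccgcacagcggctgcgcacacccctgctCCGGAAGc
Mrpl58, chr11:115403602-115403751, plus strand: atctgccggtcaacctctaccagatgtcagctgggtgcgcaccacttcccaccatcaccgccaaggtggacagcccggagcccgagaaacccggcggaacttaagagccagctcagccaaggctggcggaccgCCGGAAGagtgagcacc
Mrps22, chr9:98601680-98601829, minus strand: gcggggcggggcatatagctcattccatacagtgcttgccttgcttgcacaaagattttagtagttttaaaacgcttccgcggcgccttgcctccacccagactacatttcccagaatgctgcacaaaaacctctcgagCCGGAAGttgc
Mrpl45, chr11:97315566-97315715, plus strand: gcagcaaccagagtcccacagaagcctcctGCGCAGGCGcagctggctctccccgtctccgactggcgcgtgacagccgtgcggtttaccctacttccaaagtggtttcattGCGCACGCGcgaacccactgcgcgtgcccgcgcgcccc
The ETS letters CCGGAAG stand in the first 4 sequences, in the gene's own direction in each. Mrpl45 holds the NRF1 motif at 2 places. A match is a description of these letters and not a measured binding site.

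Some members start near a neighbour on the other strand. In 22 cases a tested gene on the opposite strand started at most 1000 bases upstream of the member's start, or a shorter distance downstream of it. Starts farther downstream were not counted. Of the 22 partners 4 rose and 11 fell, with a median log2 fold change of -0.46 and a range of -2.80 to 1.77. In 6 pairs both genes passed, 4 in the same direction and 2 in opposite directions, and Spearman's rho between members and partners was 0.15 across the 22 pairs, a description of genes measured in the same 6 libraries. Mrpl27 and Eme1, a subunit of a DNA structure-specific nuclease, formed one of the opposite pairs: Eme1 had 0.727, 0.559 and 0.867 FPKM after irradiation, against 3.32, 2.87 and 3.07 FPKM in controls (log2 fold change -1.98 ± 0.25 (SE), adjusted p = 0.000633 in limma). The other was Mrps7 and Gga3, with a log2 fold change of -0.86 for Gga3. Mrps18c and Helq, a DNA helicase, fell together, as did Mrpl57 and Ska3, which serves chromosome segregation and had the lowest log2 fold change of the partners. Mrpl2 and Klc4 rose together. Exons of 17 members overlap an exon of a tested gene on the opposite strand, Mrpl27 with Eme1 and Mrps7 with Gga3 among them, and those of 3 members (Mrps24, Mrps34 and Mrps6) overlap one on the same strand. Whether counting used the strand is not given in the sources used here, so reads of overlapping genes cannot be told apart.

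The base composition of the transcripts went along with the change. Across the 78 members Spearman's rho between log2 fold change and the GC content of the transcript was 0.49, against 0.20 across 13877 tested genes with a value. It was 0.35, 0.53 and 0.48 for irradiated 1, 2 and 3 taken alone against the control mean. Median GC content was 54.6% in the 12 members that rose, 45.8% in the 19 that fell and 51.1% in the 47 others. Transcripts of the members that fell were longer, with a median of 1893 bases against 1080.0 in those that rose, and rho between log2 fold change and length was -0.30 across members and 0.02 across all tested genes. These are correlations across genes, which share libraries and are not independent replicates, and a part of GC content in library preparation was not tested.

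On the deposited FPKM the median of the members lay between those of cytosolic ribosomal protein genes and of oxidative phosphorylation genes. After quantile normalization the members lay below both, at -0.36 against -0.11 and 0.33. Of 79 tested cytosolic ribosomal protein genes 2 rose and 19 fell, with a median of -0.28. Of 82 tested nuclear genes of oxidative phosphorylation 19 rose and 8 fell, with a median of 0.49, and 51 rose and 8 fell without irradiated 1. After median-ratio scaling 6 of these 82 genes were higher and 17 lower. The 13 mRNAs that the mitoribosome translates had a median of 0.80, but 0 of 13 passed in limma with all libraries (0 at an unadjusted p under 0.05), 3 were higher in the authors' deposited table, and 9 passed as higher in limma without irradiated 1. The groups overlapped in each of the 13. mt-Co2, a core subunit of cytochrome oxidase, had 223, 1615 and 784 FPKM after irradiation, against 315, 210.3 and 212 FPKM in controls (log2 fold change 1.44 ± 0.68 (SE), adjusted p = 0.0994). mt-Nd5, a subunit of complex I, had 119, 783 and 329.7 FPKM after irradiation, against 168, 107 and 104 FPKM in controls (log2 fold change 1.35 ± 0.63 (SE), adjusted p = 0.101). mt-Nd6 and mt-Nd4 had log2 fold changes of 0.78 and 0.97. In mt-Co2 and mt-Nd5 irradiated 1 lay within the range of the controls and irradiated 2 and 3 lay above it. The median deviations of these lists in irradiated 1, 2 and 3 were -0.66, 1.94 and 0.90 for the mitochondrially encoded mRNAs, -0.20, 1.02 and 0.58 for oxidative phosphorylation, -0.19, -0.43 and -0.16 for cytosolic ribosomal proteins and -0.25, 0.11 and 0.03 for the members. By these medians the members, oxidative phosphorylation genes and mitochondrially encoded mRNAs were lowest in irradiated 1 and highest in irradiated 2, as were the summed fat and muscle markers, whose part was not tested. The summed FPKM of the members was highest in irradiated 3 instead, at 949, 1173 and 1182 FPKM in irradiated 1, 2 and 3. All tested genes had their lowest median deviation in irradiated 1 as well, at 0.26, against 0.45 in irradiated 2 and 3.

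**Figure D4:**
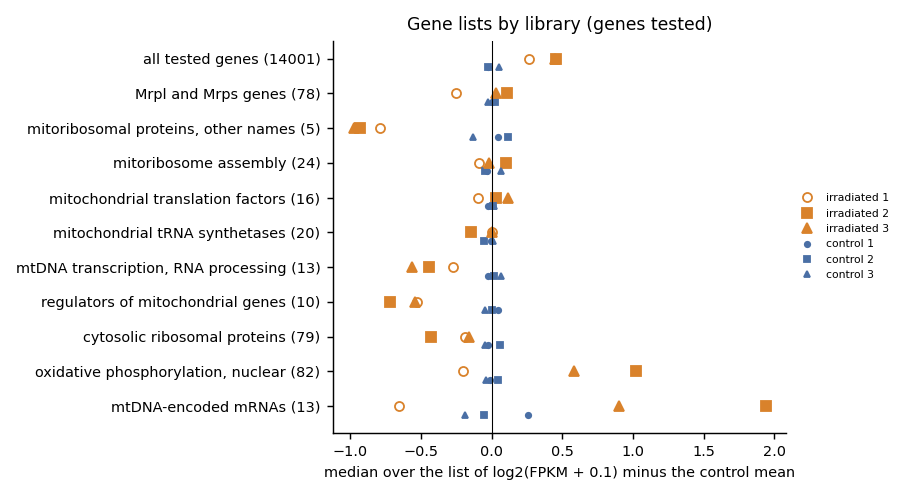
Median over each list of the deviation of log2(FPKM + 0.1) from the control mean, for irradiated libraries (orange, irradiated 1 open) and control libraries (blue, small), with the number of tested genes in brackets. The members spread from -0.25 to 0.11 over the irradiated libraries, while mitochondrially encoded mRNAs spread from -0.66 to 1.94.

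Noncoding transcripts of the same genes had negative log2 fold changes in 47 of the 59 members tested for them (79.7%), beside 65.9% of all genes tested in the lncRNA table. The lncRNA table lists 149 transcripts of 66 members, 88 annotated as retained introns and 61 as processed transcripts, and their FPKM were summed per gene. Among 59 members tested there, 1 was higher and 16 lower (27.1%), beside 15.8% higher and 30.1% lower of the 9421 genes tested in it. Their median log2 fold change was -0.60, against -0.44 for all genes tested in that table, and the mRNAs of the same 59 genes had a median of 0.01. In 53 of the 59 the noncoding log2 fold change was below that of the mRNA, but the 2 tables were normalized separately and this is a description only. The median of all tested genes was itself lower in the lncRNA table, at -0.44 against 0.40 in the mRNA table. Relative to these medians the noncoding transcripts lay at -0.16 and the mRNAs of all 78 members at -0.39. Of the 16 that fell, 6 had an mRNA that fell and 10 an mRNA that did not pass. The sum over these transcripts was 176, 173 and 163 FPKM in irradiated 1, 2 and 3, against 233, 228 and 242 FPKM in control 1, 2 and 3. Lower calls numbered 10, 6 and 7 under quantile, median-ratio and equal-sum scaling of those values. The share of all genes of the lncRNA table called under these scalings is not given here. Under the same scalings the median was -0.23, -0.16 and -0.21, against -0.14, -0.02 and -0.07 for all genes tested in that table. After median-ratio scaling 34 of the 59 were negative and 25 positive (57.6% negative, beside 50.7% of all genes tested).

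Mrpl54 had the strongest noncoding fall, with 0.974, 0.848 and 0.567 FPKM after irradiation, against 3.93, 2.82 and 2.75 FPKM in controls (log2 fold change -1.88 ± 0.30 (SE), adjusted p = 0.00213), and its mRNA had 10.2, 23.3 and 25.7 FPKM after irradiation, against 18.7, 17.6 and 15.6 FPKM in controls and did not pass. The noncoding transcript of Mrpl32 had 1.53, 0.773 and 1.23 FPKM after irradiation, against 3.26, 3.82 and 3.76 FPKM in controls (log2 fold change -1.58 ± 0.29 (SE), adjusted p = 0.00394), and those of Mrpl58 had 7.86, 4.58 and 4.28 FPKM after irradiation, against 13.7, 20.3 and 12.7 FPKM in controls (log2 fold change -1.49 ± 0.30 (SE), adjusted p = 0.00548), so that both fell with their mRNAs. Mrps11 and Mrpl51 fell in noncoding transcripts, with log2 fold changes of -1.19 and -1.06, beside -0.29 and -0.07 in mRNAs that did not pass. Mrpl38 was the exception, with 8.24, 18.2 and 15.4 FPKM after irradiation, against 5.22, 6.63 and 7.11 FPKM in controls (log2 fold change 1.06 ± 0.31 (SE), adjusted p = 0.0245), higher like its mRNA, though noncoding calls of higher ranged from 0 to 4 genes when 1 library was left out and came to 0 without irradiated 2, irradiated 3 or any 1 control. All noncoding levels named here were above 0 in every library.

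**Figure D5:**
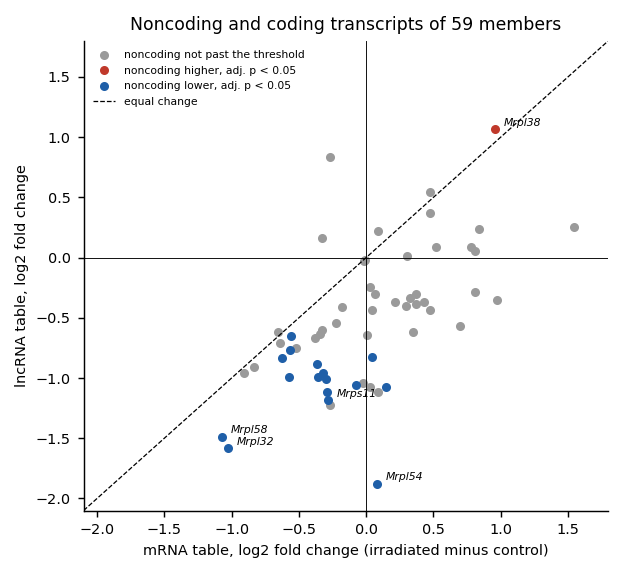
Log2 fold change (irradiated minus control) of the summed noncoding transcripts (vertical axis) against that of the mRNA (horizontal axis) for the 59 members tested in both tables, with the line of equal change dashed. Most points, 53 of 59, lie below the line, and blue points are the 16 members whose noncoding transcripts were lower. The median over all tested genes was -0.44 on the vertical and 0.40 on the horizontal axis. A place below the line therefore does not show a larger fall of the noncoding transcripts.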

How the data were processed

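Thymus RNA of 3 irradiated and 3 control mice was compared by the labelled groups with all 6 libraries. The authors deposited FPKM per library. Their deposited columns also hold a log2 fold change with raw and adjusted p-values, for which the submitters' processing notes name DESeq2 1.10.1. The sources used here do not name the aligner, annotation release, strand use or depth in reads. All 170 transcripts of the members have the positions of GENCODE M21 (GRCm38). One FPKM value per gene was used in the mRNA table, and transcripts were summed per gene in the lncRNA table, from which 62 lines without values were dropped.

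Genes averaging at least 0.5 FPKM were fitted as log2(FPKM + 0.1) with limma 3.58.1 (R 4.3.3), group only, with an abundance trend and Benjamini-Hochberg adjustment over each table, and calls were made at adjusted p under 0.05. Fold changes on this scale understate changes of low genes. The fit was tested on simulated data in which a small share of genes changed and both groups had the spread of the controls. That setting did not cover the larger spread among the irradiated mice or a change in most genes. No pairing by the replicate numbers of the labels was seen, though the labels do not say whether they mark one. Spread within a group may be technical where mice differ little. Alternatives were pseudocounts of 0.01 and 1, other filters and scalings, a replicate block and leaving out each library.

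The members and gene lists were chosen with earlier results of these data known. Named members are the 10 largest changes each way past the threshold, the 4 most and 4 least abundant, the S18 genes, Mrps30, Mrps36, Mrpl12, Mrpl41 and Mrpl58. In each pathway list the 4 smallest adjusted p are named, and the 5 smallest among lncRNA values. Others were named after their values were seen, for position or role. Promoter sequences are from RefSeq (GRCm38.p6), and 9 members without a window are not shown there.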

Additional observations from a re-analysis of the deposited data

How the results depend on the processing

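On the deposited FPKM 12 members were higher and 19 lower. The count of higher members was 4 after quantile normalization, 1 after median-ratio scaling and 2 in the authors' deposited table, and 4 to 26 when 1 library was left out (26 without irradiated 1). The count of lower members was 36 after median-ratio scaling and 12 to 19 when 1 library was left out. Of the fits that left out 1 library, a share over all tested genes is given above only for that without irradiated 1. The median log2 fold change of the members was -0.36 with quantile normalization and -0.37 with median-ratio scaling. Relative to all tested genes it was -0.39, and it became -0.30 after quantile normalization and -0.28 with genes of at least 1 FPKM in 3 libraries. The large-subunit median minus the small-subunit median, 0.01, became 0.092 after quantile normalization and ranged from -0.16 (without irradiated 3) to 0.059 when 1 library was left out. In the noncoding transcripts 1 was higher and 16 lower, and lower calls came to 10, 6 and 7 after quantile, median-ratio and equal-sum scaling. When 1 library was left out, 6 to 23 were lower and 0 to 4 higher. Shares called over all genes of the lncRNA table are not given for these settings. Mpv17l2 changed sign after quantile normalization, at -0.069. The causes were not tested.

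No pairing by replicate number was seen: deviations of same-numbered libraries correlated at 0.06, -0.04 and 0.05, and 1 of 3 irradiated libraries correlated best with its own number. With 3 libraries a group these values cannot settle whether the numbers mark a shared day or batch, which the labels do not say. With the replicate block 11 members were higher and 15 lower, and the share of all tested genes called in that fit is not given here. With 3 libraries a group and depth unstated, differences smaller than the spread among the irradiated mice, such as that of Mrps21, were not detectable.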

Other observations

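Chromosome 11 carries 11 of the 78 members, and 6 of these were higher and 1 lower on the deposited FPKM, beside 12 higher and 19 lower among all members. Of the 1153 tested genes on chromosome 11, 45.1% were higher and the median log2 fold change was 0.47. Mrpl27 and Mrpl58, the members with the largest rise and the largest fall, both lie there. The chromosome was chosen after these values were seen.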
